A study of Schizosaccharomyces pombe with 8 samples.

Results

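H3K14ac and H4ac, the acetylation of histone H3 on lysine 14 and of the histone H4 tail, were compared gene by gene in wild-type fission yeast to find the genes on which the 2 marks part. The comparison covered the protein-coding genes of chromosomes I, II and III, which are 5118 of the 5129 protein-coding genes in the deposited table. Of these, 5117 held enough signal to be tested, and ura4 was listed at 0 in all 6 libraries. The study's methods list a mutant ura4 allele for the strain, and whether it lies behind this value was not tested. The genes described here are the 126 whose H3K14ac and H4ac densities were at least 1.5-fold apart. H3K14ac was the higher mark on 88 of them and H4ac on 38. The threshold was applied to these same libraries, so the size of the difference in a member describes how it was chosen.

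Chromatin immunoprecipitation followed by sequencing was performed on wild-type Schizosaccharomyces pombe (strain YAM2394), harvested in mid-log growth from rich medium (YES) and fixed with formaldehyde. The libraries used here are 2 biological replicates each for H3K14ac, for H4ac and for total H3. No group carries a mutation or a treatment that another lacks. All share the genotype of the strain, for which the methods list mating type h+ and mutant alleles of ade6, ura4 and leu1. A figure legend of the study instead names strain YAM2400 for these libraries, which the methods list as h- without these alleles. The H4ac antibody recognizes H4 acetylated on any of several lysines, so that its signal is a sum over sites. Each mark is given as a density in tags per nt, which the authors had scaled between libraries.

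H3K14 acetylation in fission yeast is written by the acetyltransferases Gcn5, a subunit of the SAGA coactivator, and Mst2. It is removed by Clr3, the deacetylase of the SHREC complex that acts in heterochromatin. The H4 tail is acetylated mainly by Mst1, the catalytic subunit of NuA4, and deacetylated by Clr6 and by the sirtuin Sir2. Both marks are found on active promoters and the start of genes. The subtelomeres, the regions next to the chromosome ends, hold gene families for nutrient uptake and surface proteins that are mostly silent in rich medium.

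Over most genes, both marks followed each other. Pearson's r between their mean log2 densities was 0.93 across 5117 genes, and the log2 difference of H3K14ac minus H4ac had a median of -0.01 and an SD of 0.23. The same difference changed by an SD of 0.07 between the replicates numbered 1 and those numbered 2. The median SE of the fitted difference was 0.03, for a median of 2325 to 2608 tags per gene and library. With such a small error, limma (Benjamini-Hochberg adjusted p under 0.05) called 1686 genes higher in H3K14ac (32.9% of those tested) and 1877 genes lower (36.7%). Differences of at least 1.5-fold were rarer, with 88 genes higher in H3K14ac (1.72%) and 38 genes lower (0.743%). Since the scaled libraries had like medians, a difference of 0 marks a gene with the usual balance of both marks and not equal amounts of them.

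**Figure D1:**
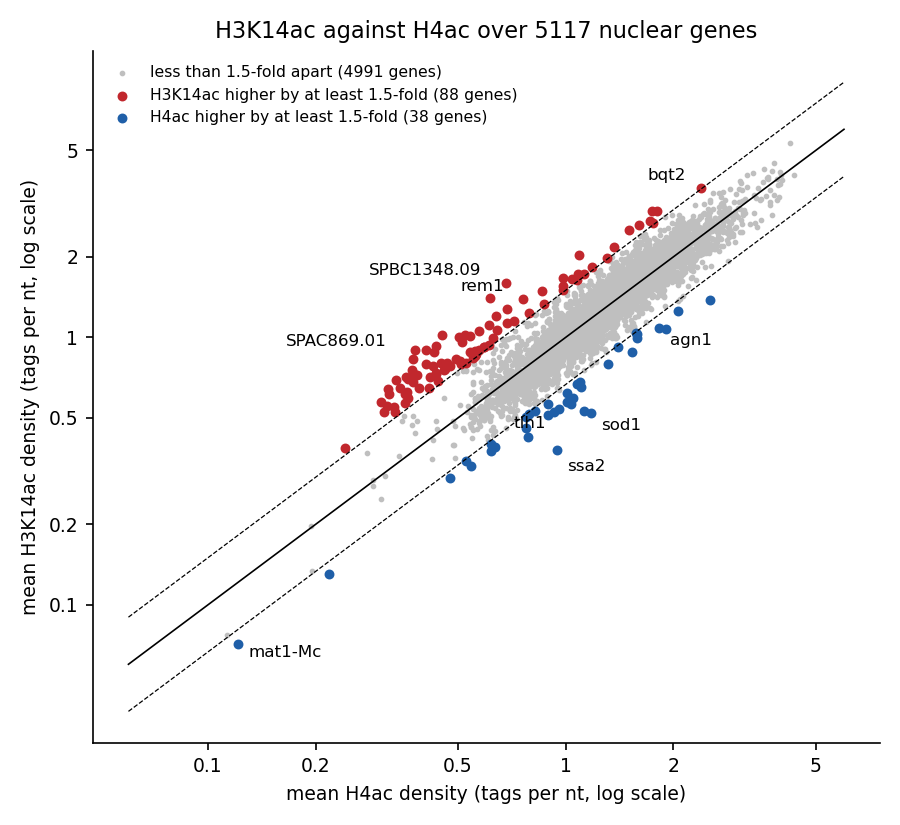
Mean H3K14ac density (vertical axis) against mean H4ac density (horizontal axis), both in tags per nt on log scales, for 5117 nuclear genes, with 1 point per gene and the mean of 2 replicates. The solid line marks equal densities and the dashed lines 1.5-fold. The 88 red genes lie above and the 38 blue genes below the dashed lines, and most of both lie in the lower part of the plot.

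The members were picked on all libraries of both marks, so the threshold was also applied to each pair of libraries alone. Of 84 genes at least 1.5-fold higher in H3K14ac in the libraries numbered 1, all 84 were higher in those numbered 2, 76 of them by at least 1.5-fold (median log2 difference of 0.74 in the first and 0.75 in the second). Of 40 genes at least 1.5-fold higher in H4ac in the libraries numbered 1, all 40 were higher in those numbered 2, 31 of them by at least 1.5-fold (medians of -0.73 and -0.69). Picking in the libraries numbered 2 gave 89 and 44 genes, again all of the same sign in the others, with 76 and 31 past the threshold. Across all 5117 genes the difference correlated between the pairs at r = 0.95 and changed by an SD of 0.07. A like sign past 1.5-fold was thus largely set in advance, and the counts describe only how repeatable the densities were.

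**Figure D2:**
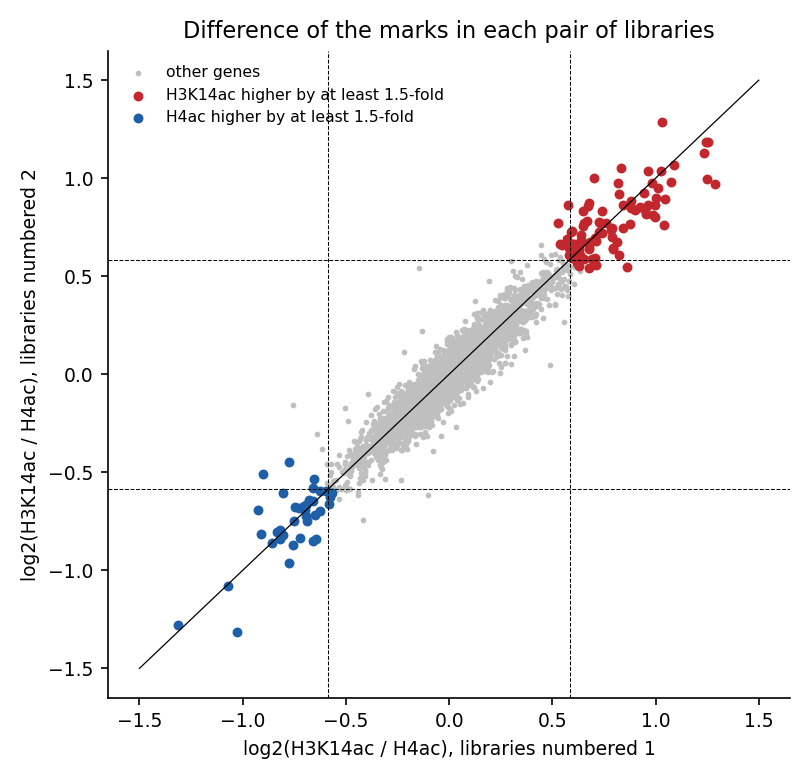
Log2 of H3K14ac over H4ac in the libraries numbered 2 (vertical axis) against that in the libraries numbered 1 (horizontal axis), 1 point per gene, with dashed lines at 1.5-fold. Red and blue genes, at least 1.5-fold higher in H3K14ac or in H4ac, fall on the same side in both pairs of libraries. They were chosen on both pairs together, so this was largely set by the choice.

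At the threshold, bqt2, which gathers telomeres at the nuclear envelope in meiosis, lay just inside with a log2 difference of 0.59. The transporter gene SPBC1348.05 (0.59) and SPAPB15E9.06 (0.60), of unknown function, came next. SPBCPT2R1.03 (0.58), SPAC22H10.06c (0.58) and mrpl4 (0.57) lay just outside. In the other direction rec15, needed for meiotic recombination, lay just inside (-0.59), with the polarity GTPase gene cdc42 (-0.59) and the regulator of sexual development pac2 (-0.60). The genes just outside were SPAC15E1.02c (-0.58), the aldolase gene fba1 (-0.58) and skb5 (-0.58).

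The gene with the largest excess of H3K14ac was SPAC869.01, which encodes an amidase. Its H3K14ac density was 0.930 and 0.868 tags per nt in the 2 replicates, against 0.384 and 0.377 for H4ac, a log2 difference of 1.22 ± 0.04 (SE, n = 2 per mark). The largest excess of H4ac was found on ssa2, an Hsp70 chaperone gene. Its H4ac density was 0.907 and 0.985 tags per nt, against 0.359 and 0.400 for H3K14ac, a log2 difference of -1.30 ± 0.14. Both genes had less than the median density of either mark, which lay at 1.24 (H3K14ac) and 1.23 (H4ac) tags per nt. They differed in H3, whose mean density was 1.82 tags per nt over SPAC869.01 and 0.152 over ssa2. The adjusted p of the 126 members ran from 2.18e-08 to 0.0344.

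**Figure D3:**
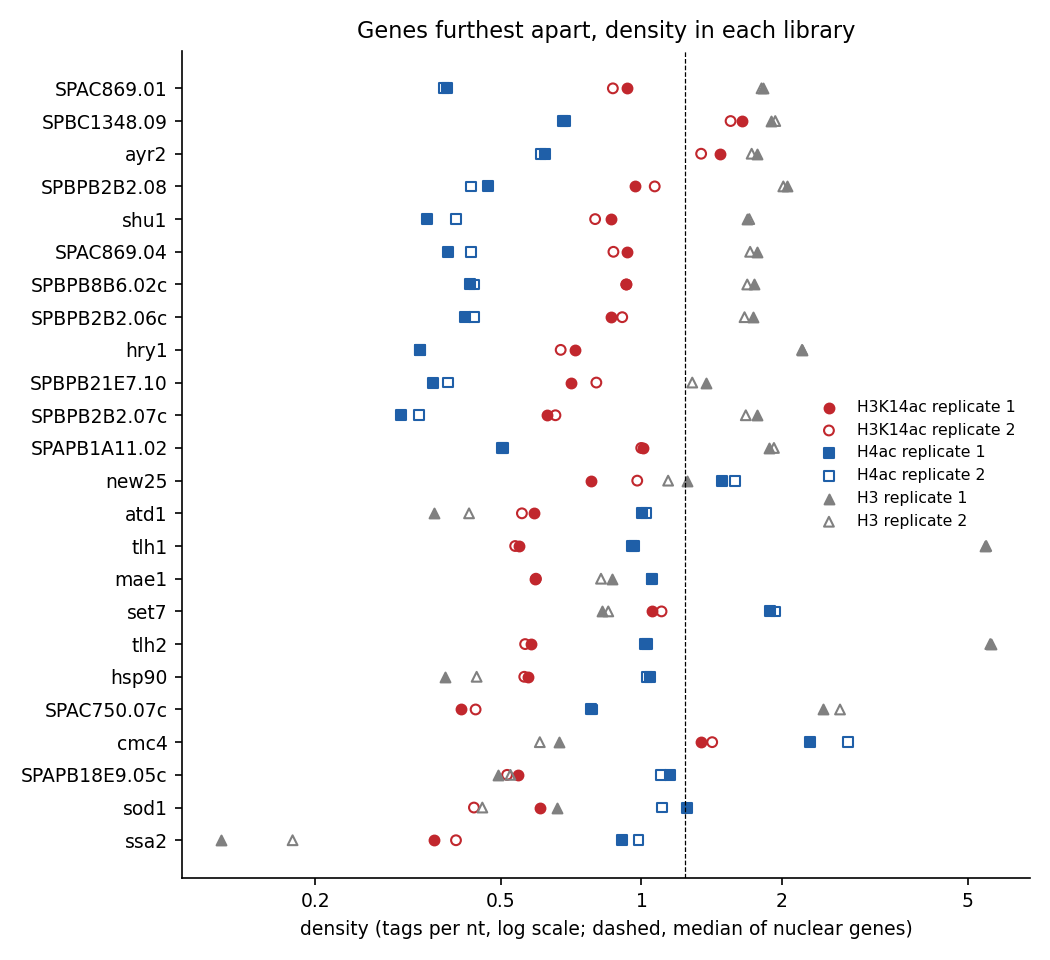
Density in tags per nt (horizontal log axis) of the 12 genes furthest apart in each direction, with 1 symbol per library, filled for replicate 1 and open for replicate 2. Red circles (H3K14ac) and blue squares (H4ac) do not overlap in any of these genes, which were chosen for their distance. Of all 5117 genes, 4375 (85.5%) also showed no overlap. Grey triangles (H3) run from near 0.15 tags per nt over ssa2 to above 5 over tlh1 and tlh2.

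Both sets also differed in base composition. The median GC content was 35.9% in the genes higher in H3K14ac and 39.97% in those higher in H4ac, against 36.7% in all genes. The first 120 coding bases of 3 genes from each set are shown as examples, read from assembly ASM294v3 (RefSeq) at the gene's own position and strand, with G and C in capitals. For the genes higher in H4ac, the stretches lie at III:2057243-2057362 (ssa2), II:2807637-2807756 (the glycolysis gene tdh1) and II:2201237-2201356 (the enolase gene eno101), all on the plus strand. For those higher in H3K14ac, they lie at I:5522989-5523108 (SPAC869.01, minus strand), II:46712-46831 (the urea transporter gene SPBPB8B6.02c, minus strand) and I:5502575-5502694 (hry1, a gene for a cation-binding protein, plus strand). All 6 are exonic and coding. G and C make up 42.5%, 44.2% and 56.7% of the stretches of ssa2, tdh1 and eno101, and 35.8%, 45% and 30.0% of those of SPAC869.01, SPBPB8B6.02c and hry1. The sets overlap in these examples, since SPBPB8B6.02c exceeds both ssa2 and tdh1.
ssa2: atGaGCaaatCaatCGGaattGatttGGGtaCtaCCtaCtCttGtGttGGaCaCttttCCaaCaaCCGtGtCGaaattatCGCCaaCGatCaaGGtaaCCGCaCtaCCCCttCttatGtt
tdh1: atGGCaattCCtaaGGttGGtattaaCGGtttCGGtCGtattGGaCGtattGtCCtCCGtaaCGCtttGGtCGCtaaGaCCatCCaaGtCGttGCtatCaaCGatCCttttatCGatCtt
eno101: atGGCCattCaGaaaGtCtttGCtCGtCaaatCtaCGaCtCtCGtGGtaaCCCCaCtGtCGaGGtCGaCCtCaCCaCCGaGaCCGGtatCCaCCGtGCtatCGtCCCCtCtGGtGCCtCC
SPAC869.01: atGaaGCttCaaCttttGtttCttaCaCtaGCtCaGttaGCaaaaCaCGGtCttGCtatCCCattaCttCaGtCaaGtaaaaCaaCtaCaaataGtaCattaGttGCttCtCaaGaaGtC
SPBPB8B6.02c: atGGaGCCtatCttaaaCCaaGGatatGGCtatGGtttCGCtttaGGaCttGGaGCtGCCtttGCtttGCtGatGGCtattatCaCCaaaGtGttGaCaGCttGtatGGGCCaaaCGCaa
hry1: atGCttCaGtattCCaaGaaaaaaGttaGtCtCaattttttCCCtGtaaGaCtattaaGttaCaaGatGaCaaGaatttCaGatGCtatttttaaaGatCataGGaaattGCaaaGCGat

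To determine where the genes higher in H3K14ac lie, each gene was placed by its distance from the nearest chromosome end. Of the 88 genes, 51 (58.0%) lay within 100 kb of an end of chromosome I or II, where 125 of the 5117 tested genes (2.44%) were found. Among these 125 genes, H3K14ac was called higher on 91 and lower on 22, beside 32.9% and 36.7% of all genes. Their median log2 difference was 0.49. The excess was already present from 10 to 20 kb from the end (median 0.55, 12 genes) and remained at 20 to 40 kb (0.52, 30 genes) and 40 to 60 kb (0.50, 26 genes). It was highest at 60 to 80 kb, with a median of 0.88 over 24 genes, 19 of which were members. Beyond this distance it dropped to 0.10 at 80 to 100 kb (25 genes) and 0.18 at 100 to 120 kb (27 genes), and was -0.02 over the 3920 genes more than 200 kb from an end. Without these 125 genes, 37 genes higher in H3K14ac and 32 higher in H4ac remained.

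The excess was found at all 4 ends of these 2 chromosomes. Between 20 and 100 kb from the end, the median log2 difference was 0.48 at the left end of chromosome I (29 genes), 0.60 at its right end (26 genes), 0.50 at the left end of chromosome II (24 genes) and 0.52 at its right end (26 genes). Neither pair of libraries decided these values, which ran from 0.43 to 0.59 in each pair taken alone. At the ends of chromosome III, which carry the ribosomal DNA repeats, the 22 genes within 50 kb had a median of 0.02 and included no member. Genes within 50 kb of a centromere also showed the usual balance (median -0.01 over 140 genes, 1 member, SPAC4H3.17, which was higher in H3K14ac).

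**Figure D4:**
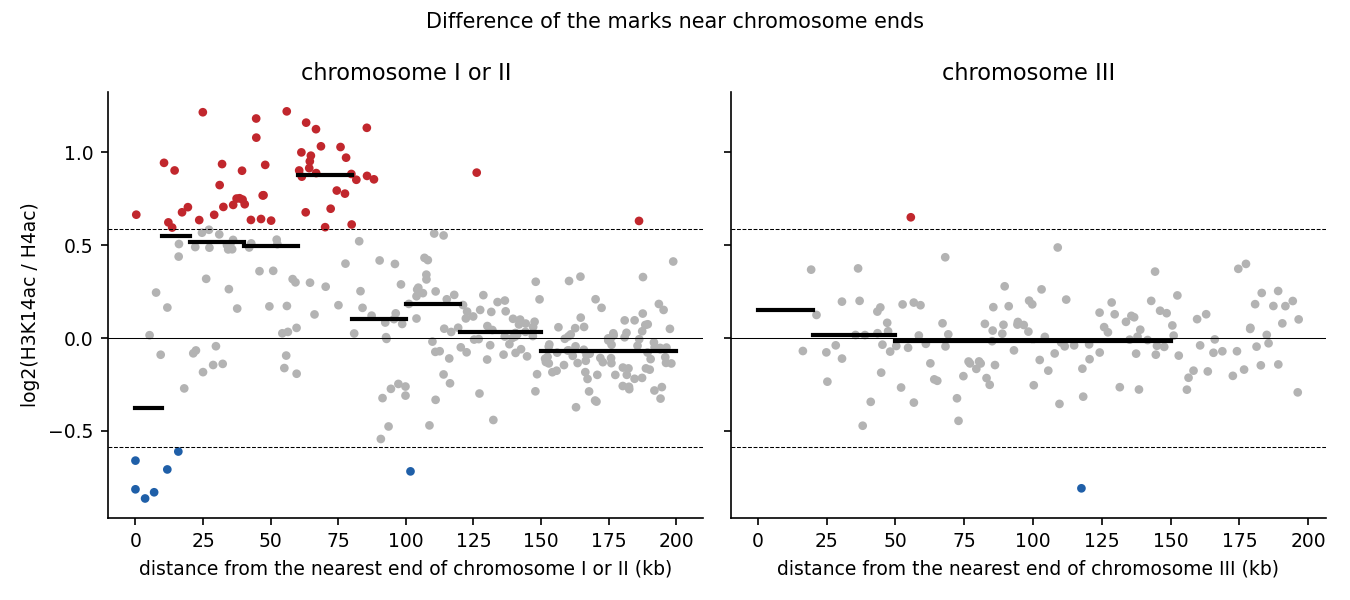
Log2 of H3K14ac over H4ac for each gene (points) against its distance in kb from the nearest end of chromosome I or II (left) or III (right), with black bars for the median of each distance class and dashed lines at 1.5-fold. Red genes crowd between 10 and 90 kb on chromosomes I and II, 6 blue genes lie in the outermost 20 kb, and neither pattern is seen on chromosome III.

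The levels behind the differences varied with the distance. At 60 to 80 kb from the end, the median gene held 0.793 tags per nt of H3K14ac and 0.486 of H4ac, against 1.25 of each in the genes more than 200 kb away. At 80 to 100 kb the medians were 1.49 of H3K14ac and 1.24 of H4ac, and within 10 kb of the end they were 0.578 and 0.645. The median H3 density was 1.41 tags per nt at 60 to 80 kb against 1.22 in the distant genes. Of the 88 genes higher in H3K14ac, 64 (72.7%) had less than the median of both marks, against 45.2% of all genes, and 9 exceeded both. These shares describe values that the choice of the genes used. H3, which it did not use, was above the median in 65 of the 88 genes.

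Neighbouring genes shared the excess. Of the 88 genes, 45 lay next to another gene of the set, as did 7 of the 38 genes higher in H4ac in theirs. The longest run held 6 genes on chromosome II between 60553 and 71310 and comprised SPBPB21E7.02c, SPBPB21E7.10, SPBPB21E7.11, cmt2, SPBPB21E7.05 and aes1, with log2 differences of 0.60 to 1.00. In cmt2, which encodes a catechol O-methyltransferase, H3K14ac was 0.995 and 1.04 tags per nt and H4ac was 0.492 and 0.552 tags per nt. A run of 5 genes on chromosome I between 5521275 and 5539516 held SPAC869.01, the surface glycoprotein gene pfl9, SPAC186.02c, SPAC186.03 and SPAC186.04c, with differences of 0.63 to 1.22. Runs of 4 genes were SPAC869.09, pcm2, mel1 and hry1 on chromosome I, and ght7, SPBPB8B6.02c, fah1 and grt1 at the left and SPBPB2B2.05, SPBPB2B2.06c, SPBPB2B2.07c and SPBPB2B2.08 at the right end of chromosome II. Shorter runs of 3 genes were ftm6 with SPBC1348.04 and SPBC1348.05, and SPBPB2B2.16c with ftm7 and SPBPB2B2.18. Gene rows of members overlapped in 4 pairs, and overlapping rows share tags and are not separate measurements. The pairs were fah1 with grt1, SPAC977.18 with ftm2, SPBPB21E7.10 with SPBPB21E7.11 (601 nt), and SPCC338.03c with mug112 (378 nt, all of mug112).

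Some of the subtelomeric members carry product names for the uptake or breakdown of nitrogen compounds, and were picked out after their values were seen. SPBPB8B6.02c, a urea transporter gene, held 0.925 and 0.928 tags per nt of H3K14ac and 0.429 and 0.438 of H4ac (log2 difference of 1.08 ± 0.03). SPAC869.04, a formamidase-like gene, held 0.930 and 0.871 tags per nt of H3K14ac and 0.385 and 0.432 of H4ac (1.12 ± 0.05). The libraries of the 2 marks were more than 2-fold apart in both genes on average. Others of this kind were the second urea transporter gene SPAC869.03c (0.91), the acetamidase gene fah1 (0.77), the amino acid permease gene nrg1 (0.61) and the L-asparaginase gene SPAC186.03 (0.64).

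A pair of genes of iron and haem uptake lay side by side on the left arm of chromosome I. In shu1, which encodes a cell surface haem-binding protein, H3K14ac was 0.862 and 0.796 tags per nt and H4ac was 0.347 and 0.401 tags per nt (1.13 ± 0.06). In its neighbour str3, a siderophore-iron and haem transporter gene, H3K14ac was 0.676 and 0.692 tags per nt and H4ac was 0.373 and 0.375 tags per nt (0.85 ± 0.03). Other listed iron genes did not reach 1.5-fold. Of 11 iron genes listed, 5 were called higher and 3 lower in H3K14ac, beside 32.9% and 36.7% of all genes. In this list str3 was the one past 1.5-fold, and the median was 0.03.

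Genes for sugars gave a similar picture. In mel1, the gene for the secreted enzyme that splits melibiose, H3K14ac was 0.720 and 0.70 tags per nt and H4ac was 0.343 and 0.372 tags per nt (0.97 ± 0.04). Of the 8 hexose transporter genes, ght1, ght3, ght6 and ght7 were called higher in H3K14ac, with ght7 (0.75) and ght1 (0.63) past 1.5-fold. ght2 (-0.36), ght5 (-0.20) and ght4 (-0.18) were called lower. ght5 encodes the main glucose transporter of cells in glucose. The 3 galactose genes, a cluster near the right end of chromosome II, were all called higher, namely gal10 (0.53), gal7 (0.17) and gal1 (0.17). Among 190 genes named as transporters or permeases, 56 were called higher and 79 lower, beside 32.9% and 36.7% of all genes. Their median was -0.03, and the 9 that passed 1.5-fold were all higher in H3K14ac.

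Copies of one gene at several ends cannot be told apart here. SPBC1348.09 on chromosome II (24916 to 25626) and ayr2 on chromosome I (44644 to 45468), both dehydrogenase genes, had no 50-mer that occurs once in the reference. Every 50-mer of SPBC1348.09 is also present in ayr2, and their first 120 coding bases, at II:24916-25035 and I:44704-44823 in ASM294v3 on the plus strands, show no base in capitals, which would mark a difference.
ayr2: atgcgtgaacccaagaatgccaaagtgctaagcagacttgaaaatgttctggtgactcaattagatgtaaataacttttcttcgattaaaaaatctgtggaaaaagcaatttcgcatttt
SPBC1348.09: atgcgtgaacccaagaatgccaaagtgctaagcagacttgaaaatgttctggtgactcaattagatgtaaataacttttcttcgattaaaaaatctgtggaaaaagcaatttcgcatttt

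The densities of SPBC1348.09 were 1.64 and 1.55 tags per nt for H3K14ac and 0.687 and 0.678 for H4ac (1.21 ± 0.03). Those of ayr2 were 1.47 and 1.34 for H3K14ac and 0.621 and 0.608 for H4ac (1.18 ± 0.04). Both pairs of values describe 1 pool of tags. The families of the transmembrane genes ftm2, ftm3, ftm6 and ftm7 (0.75 to 0.94) and of the transporters SPAC750.02c, SPBC1348.05 and SPBPB2B2.16c (0.59 to 0.72) were likewise copies. In all, 15 of the 88 genes higher in H3K14ac shared at least 50% of their 50-mers with another gene of that set. In the genes with at least 90% unique 50-mers, 67 were at least 1.5-fold higher and 29 lower.

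Away from these ends, 37 genes were at least 1.5-fold higher in H3K14ac. The largest difference was found on SPAPB1A11.02, an esterase or lipase gene on chromosome I, which held 1.01 and 0.999 tags per nt of H3K14ac and 0.505 and 0.503 of H4ac (0.98 ± 0.03). Its neighbour mfc1, which encodes a copper transporter of the forespore membrane, held 1.69 and 1.65 tags per nt of H3K14ac and 0.977 and 0.989 of H4ac (0.76 ± 0.03). In rem1, the gene of a meiosis-specific cyclin, H3K14ac was 1.4 and 1.38 tags per nt and H4ac was 0.754 and 0.764 tags per nt (0.87 ± 0.02). These 3 genes had more H3 than the median gene, at 1.90, 1.52 and 1.63 tags per nt.

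Further genes of sexual development stood on this side, but mei4, rec15, pac2, mat1-Mi and mat1-Mc were at least 1.5-fold higher in H4ac. A mug symbol or a product named for meiosis or spores was found in 6 of the 88 genes (6.82%). The same held for 2 of the 38 genes higher in H4ac (5.26%), against 2.76% of all genes. mug114 (0.72), mug146 (0.71), mug153 (0.70) and mug112 (0.60), named for their induction in meiosis, belonged to the listed meiosis genes. Of these 102 genes, 53 were called higher and 28 lower (median 0.09), beside 32.9% and 36.7% of all genes. The spindle pole body gene spo13 (0.61) and the M-factor pheromone gene mfm2 (0.66) were further members. The meiotic drive genes of the wtf family were higher in H3K14ac in 18 of 20 cases and lower in none (median 0.29), with wtf16 (0.61), which encodes an antidote-like suppressor, past 1.5-fold. All 13 Tf2 retrotransposon genes were called higher, by 0.12 to 0.19, but these are copies of 1 sequence and not separate measurements.

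hsp16, a small heat shock protein gene, was the one chaperone gene of 20 that was called higher in H3K14ac. Its H3K14ac density was 1.14 and 1.16 tags per nt and its H4ac density was 0.711 and 0.723 tags per nt (0.67 ± 0.03). The highest levels of both marks among the 88 genes were found on bqt2, at 3.64 and 3.59 tags per nt for H3K14ac and 2.35 and 2.45 for H4ac. The product of 32 of the 88 genes (36.4%) is uncharacterized, against 7.27% of all genes. SPBC32H8.15, one of them, had the fewest tags in H3 (0.0574 tags per nt), and its difference of 0.74 lost the call when any library of either mark was left out.

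Among the genes higher in H4ac, those furthest apart after ssa2 included genes for a chaperone and for defence against oxidants. The chaperone gene hsp90 held 1.04 and 1.03 tags per nt of H4ac and 0.571 and 0.561 of H3K14ac (-0.86 ± 0.06), with a mean H3 density of 0.411 tags per nt. sod1, the gene of the cytosolic superoxide dismutase, held 1.25 and 1.1 tags per nt of H4ac and 0.607 and 0.438 of H3K14ac (-1.17 ± 0.17). In both genes H3K14ac was under and H4ac near or under the median of all genes. Others of the 15 furthest apart were short, namely SPAPB18E9.05c (-1.07), of unknown function, cmc4 (-0.87) and new25 (-0.81), of 273, 213 and 270 nt.

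Among 20 chaperone genes, 16 were called lower in H3K14ac than in H4ac and 1 higher, beside 36.7% and 32.9% of all genes. The list's median was -0.28. Besides ssa2 and hsp90, past 1.5-fold, the disaggregase gene hsp104 (-0.57), the Hsp60 gene mcp60 (-0.49), the Hsp90 cochaperone gene wos2 (-0.46) and the Hsp70 gene ssa1 (-0.44) were called lower. In ssa1, H4ac was 1.5 and 1.56 tags per nt and H3K14ac was 1.12 and 1.13 tags per nt, and its mean H3 density was 1.19 tags per nt.

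Glycolysis and fermentation genes were split. The glyceraldehyde-3-phosphate dehydrogenase gene tdh1 held 0.863 and 0.917 tags per nt of H4ac and 0.520 and 0.510 of H3K14ac (-0.78 ± 0.05). The enolase gene eno101 held 1.06 and 1.09 tags per nt of H4ac and 0.674 and 0.660 of H3K14ac (-0.68 ± 0.05). The phosphoglycerate kinase gene pgk1 (-0.75) and the pyruvate decarboxylase gene pdc101 (-0.72) also passed 1.5-fold. All 4 had low H3, from 0.254 tags per nt in eno101 to 0.581 in pdc101. Of the 17 genes listed, 8 were called lower in H3K14ac and 4 higher, beside 36.7% and 32.9% of all genes. The list's median was -0.10. The second enolase gene eno102 (0.32) and the hexokinase gene hxk2 (0.28) differed in the other direction.

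Low H3 was not shared by all genes higher in H4ac. H3 lay under 0.5 tags per nt in 7 of the 38 genes higher in H4ac (18.4%) and in 7 of the 88 genes higher in H3K14ac (7.95%), against 1.23% of all genes. The median H3 density of the 38 genes was 0.912 tags per nt. Among all genes with less than 0.3 tags per nt of H3, the median log2 difference was 0.24 over 23 genes, and among those with 0.3 to 0.5 it was 0.03 over 40 genes. Both marks on an H3-poor gene include tags that do not depend on the antibody, whose part in the differences was not tested because the Input libraries were not analysed here.

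Genes of the cell wall formed a further group. agn1, which encodes the glucanase that acts on the cell wall around the septum at cell separation, held 1.79 and 1.86 tags per nt of H4ac and 1.06 and 1.1 of H3K14ac (-0.75 ± 0.03). Of 16 cell wall glucanase and synthase genes, 13 were called lower in H3K14ac and 2 higher, beside 36.7% and 32.9% of all genes. Their median was -0.31, and agn1 was the only one past 1.5-fold.

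Other members with a known role lay scattered over the genome. They include genes for metabolism, such as mae1 (-0.82, malate uptake), atd1 (-0.81, aldehyde dehydrogenase), gnd1 (-0.68, pentose phosphate pathway) and ole1 (-0.62, fatty acid desaturation), and pma1 (-0.69), which encodes the plasma membrane proton pump. They also include genes for RNA and chromatin, such as pac1 (-0.81, double-stranded RNA cleavage), dbp2 (-0.65, RNA helicase), csx1 (-0.62, RNA binding under oxidative stress) and set7 (-0.82, a histone methyltransferase gene). In mae1, H4ac was 1.05 in both replicates and H3K14ac was 0.592 and 0.594 tags per nt. The meiotic transcription factor gene mei4 (-0.61) was the only listed meiosis gene past 1.5-fold on this side.

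The outermost genes of chromosomes I and II differed from those next to them. Within 10 kb of an end, the median log2 difference was -0.37 over 8 genes, and the 20 genes within 20 kb held 6 of the 38 genes higher in H4ac and 7 of the 88 higher in H3K14ac. tlh1, the telomere-linked helicase gene at positions 1 to 5662 of chromosome I, held 0.963 and 0.955 tags per nt of H4ac and 0.546 and 0.536 of H3K14ac (-0.81 ± 0.02). Its copy tlh2 on chromosome II held 1.03 and 1.02 of H4ac and 0.580 and 0.563 of H3K14ac (-0.83 ± 0.03). The H3 density was 5.46 tags per nt over tlh1 and 5.60 over tlh2, more than 4 times that of the median gene. Next to tlh1, SPAC212.08c (-0.71) and SPAC212.12 (-0.61) differed in the same direction, as did SPAC750.07c (-0.86) and SPAC750.08c (-0.66) at the right end of chromosome I. SPAC212.12 shares 100% of its 50-mers with SPAC750.07c and 77.7% with SPAC212.08c, so these values are not separate measurements. In all, 4 of the 38 genes higher in H4ac shared at least 50% of their 50-mers with another gene of that set. The left end of chromosome II differed in the other direction. Its 8 genes within 20 kb, among them SPBC1348.15 (0.66), had a median of 0.61, with 5 members higher in H3K14ac and 0 higher in H4ac. At the right end of chromosome II, 1 gene lay within 20 kb, which was tlh2. In the 8 genes within 10 kb, the median share of unique 50-mers was 0%, so that tags from other copies at chromosome ends are part of each value.

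At the mating-type locus, mat1-Mi and mat1-Mc, the genes that give M cells their mating type, were members with the lowest densities of all. In mat1-Mc, H4ac was 0.127 and 0.117 tags per nt and H3K14ac was 0.0632 and 0.0794 tags per nt (-0.70 ± 0.26). In mat1-Mi, H4ac was 0.210 and 0.226 tags per nt and H3K14ac was 0.116 and 0.145 tags per nt (-0.70 ± 0.15). Most of their 50-mers are shared with the silent copies mat3-Mc and mat3-Mi, so the active and silent cassettes cannot be told apart by sequence. The methods list YAM2394 as h+, the mating type of P cells, though a figure legend names an h- strain. Tags on the M genes may thus come from the silent copies alone, which was not tested. The call of mat1-Mc was lost with a pseudocount of 0.1 tags per nt (-0.37), over coding exons alone and without either H3 replicate or H4ac replicate 1.

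Some listed gene families held no member past 1.5-fold but many called genes. Of the 10 core histone genes, 8 were called lower in H3K14ac than in H4ac and none higher (median -0.35), with hta1 (-0.44), htb1 (-0.39) and hhf1 (-0.38) furthest apart. The 4 phosphate-uptake genes were all called lower, with pho1 (-0.54), the acid phosphatase gene, and pho84 (-0.48), the phosphate transporter gene, the furthest apart. Of the 141 ribosomal protein genes, 73 were called higher and 7 lower, but their median was only 0.08 and their range was -0.33 to 0.38. Of the 8 translation elongation factor genes, 5 were called lower and 1 higher (median -0.14). These shares stand beside 32.9% and 36.7% of all genes called higher and lower, and a median of -0.01.

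**Figure D5:**
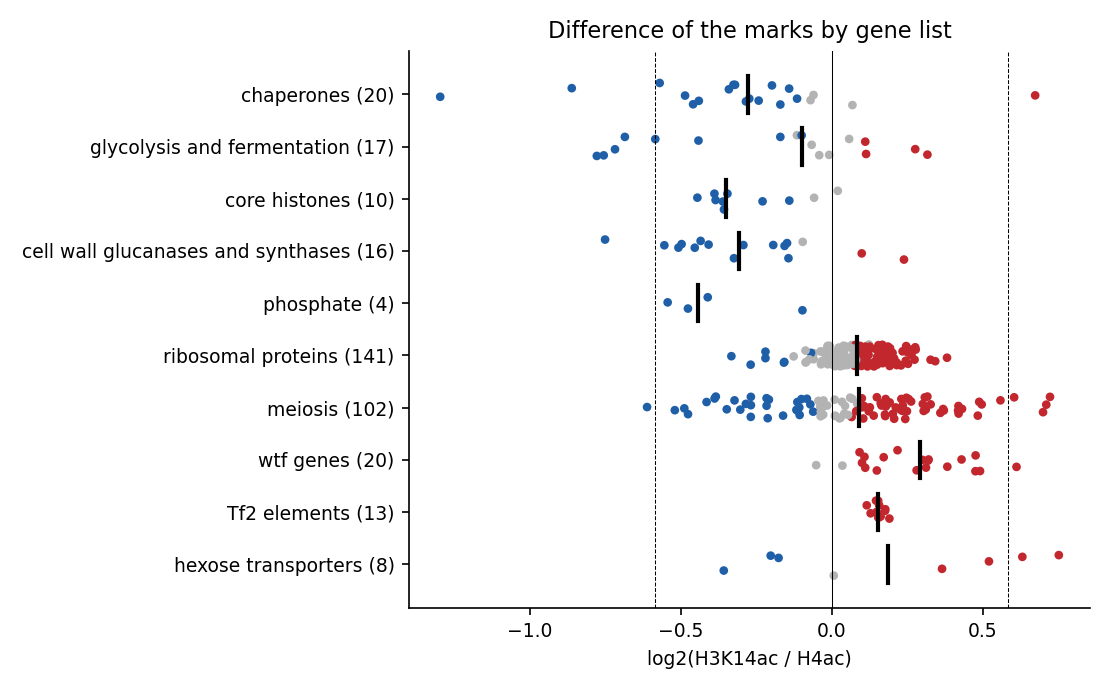
Log2 of H3K14ac over H4ac for each gene of 10 gene lists (points, number of genes in parentheses), with black bars for the list's median and dashed lines at 1.5-fold. Red and blue points were called higher or lower in H3K14ac by limma and grey points were not. Chaperone, cell wall, histone and phosphate genes lie mostly left of 0, and wtf and Tf2 genes to the right.

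The smaller lists held few members, and their counts stand beside 32.9% and 36.7% of all genes called higher and lower. Of 14 stress response genes, 6 were called higher and 5 lower (median 0.04). Of 14 genes of the MBF regulon, which acts at the start of S phase, 7 were called higher and 5 lower (median 0.09). Of 9 flocculin genes, 3 were called higher and 5 lower (median -0.14), with pfl9 (0.63) the one past 1.5-fold. Of 15 genes of mating and nitrogen starvation, 5 were called higher and 7 lower (median -0.06), of 7 thiamine genes 1 and 2 (0.02), and of 6 pentose phosphate genes none and 4 (-0.13).

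The overlap with noncoding transcripts was counted next, with no test. An antisense XUT, a noncoding transcript degraded by the exonuclease Exo2, overlapped 22 of the 88 genes higher in H3K14ac by at least 50 nt (25%) and none of the 38 genes higher in H4ac, against 1086 of all 5117 genes (21.2%). A further noncoding transcription unit of the table, on either strand, overlapped 10 of the 38 genes higher in H4ac (26.3%) and 2 of the 88 higher in H3K14ac (2.27%), against 8.64% of all genes.

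Genes higher in H3K14ac were short, with a median length of 1018 nt (201 to 3852 nt), against 1888 nt in all genes. Of these 88 genes, 16 were shorter than 500 nt (18.2%), against 150 of all genes (2.93%). Genes higher in H4ac had a median length of 1802 nt (129 to 6015 nt), with a like share of 7 under 500 nt (18.4%). In all genes, the median log2 difference went from 0.08 at lengths of 500 to 1000 nt to -0.11 at more than 4000 nt. Across genes, the difference correlated with length at r = -0.24 and with GC content at r = -0.17 (5117 genes, which share the same libraries). Removing a trend on GC content in each library left 114 of the 126 members past the threshold. Of the 38 genes higher in H4ac, 6 had more than 45% GC (15.8%), against 1.29% of all genes and 1 of the 88 genes higher in H3K14ac. Members of both sets mostly had 1 coding exon, 65 of 88 and 31 of 38, against 53.3% of all genes.

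The coding exons make up most or all of many gene rows and so share the values that chose the genes. Over coding exons alone, the median log2 difference was 0.77 in the 88 genes and -0.76 in the 38 genes. In the 28 genes higher in H4ac with at least 100 nt outside coding exons, the median was -0.67 outside and -0.76 inside. In hsp90 the difference was -0.97 over coding exons and -0.41 outside, whereas in tdh1 it was -0.67 over coding exons and -1.08 outside. Restricting all genes to coding exons raised the count of those at least 1.5-fold higher in H4ac from 38 to 77, and changed that of those higher in H3K14ac from 88 to 101.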

How the data were processed

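ChIP-seq of wild-type cells was read from 1 deposited table that gives, for each annotated feature, a signal (tags per nt of length) computed by the authors after mapping to assembly ASM294v2 with Bowtie2. In each library, density times length gave whole multiples of 1 step (within 0.01 of a step), so each had been scaled by 1 factor. Tags summed over nuclear genes ranged from 14013995 to 15214197 per library. The study describes unique mapping, yet the 37 genes with no unique 50-mer held H3 at a median of 1.53 tags per nt. Of the 8 labelled libraries, the 2 of Input were not analysed here.

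Densities were not divided by H3. Log2(density + 0.01) of genes that reached 0.05 tags per nt in 2 libraries was fitted with limma 3.58.1 (R 4.3.3, intensity trend), with 1 mean per group over the 6 libraries. P-values were adjusted by Benjamini-Hochberg over 5128 genes. All folds are on this scale, which understates changes at low density. The fit was tested on simulated data. Alternatives changed the pseudocount, filter, feature set, GC trend, scaling, block and libraries.

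Named are the 15 genes furthest apart in each direction, 3 on each side of the threshold, list members past it and runs of at least 3 neighbours. Other members were named after their values were seen. Members and lists were chosen with earlier results of these data known. The chaperone list includes ssb1, which in fission yeast encodes a replication factor, and pho4 stands in 2 lists. Sequence, GC content and 50-mers came from ASM294v3, where 99.9% of the 5118 nuclear transcripts start with ATG at the table's position. Symbols came from RefSeq, which held 5111 of the 5129 identifiers.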

Additional observations from a re-analysis of the deposited data

How the results depend on the processing

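All 132 named genes kept their direction under the alternatives tried. Of 1716 alternative values, 9 lost the call, all on mat1-Mc or SPBC32H8.15. The call here means the adjusted p alone and not the 1.5-fold threshold. With a pseudocount of 0.1, 88 of the 126 members stayed past 1.5-fold, and 64 genes were higher in H3K14ac by that much. Leaving out 1 library in turn gave 1442 to 1703 genes called higher in H3K14ac and 1616 to 1875 lower, and 84 to 89 higher and 37 to 41 lower by at least 1.5-fold.

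With the replicate number as a block, 1697 genes were called higher and 1873 lower, and the same 126 genes were at least 1.5-fold apart. Replicates that share a number shared little else: their deviations correlated at r = 0.01 (H3 with H3K14ac), -0.01 (H3 with H4ac) and 0.12 (H3K14ac with H4ac).

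The counts moved most with the set of genes and the threshold. Genes that overlap no other gene gave 850 called higher and 921 lower (862 and 932 of the same genes originally). Genes at least 1.5-fold higher in H3K14ac numbered 37 without the 100 kb next to the ends of chromosomes I and II (an alternative added after seeing the data), and 232 or 9 at 1.3-fold or 2-fold. Genes at least 1.5-fold lower numbered 24 with a pseudocount of 0.1, 77 on coding exons, and 171 or 3 at 1.3-fold or 2-fold. The 2 planned count models were not run because the table holds densities. Instead voom weights on recovered tags, added after seeing the data, gave 129 genes, 126 of them shared. SPBC32H8.15 is 306 nt long, and whether depth lay behind its lost calls was not tested. Only 2 replicates per antibody were available, and no second antibody.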

Other observations

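Several classes of noncoding features parted further than protein-coding genes. The median log2 difference of H3K14ac minus H4ac was -0.56 over 171 tRNA genes, of which 79 were at least 1.5-fold higher in H4ac (46.2%) and none in H3K14ac. It was -0.37 over 47 rRNA genes (14 at least 1.5-fold higher in H4ac, none in H3K14ac), -0.47 over 5 snRNA genes and -0.10 over 57 snoRNA genes. Over 1628 XUTs it was 0.10, with 98 at least 1.5-fold higher in H3K14ac and 35 in H4ac. Over 487 further noncoding transcription units it was -0.10, with 12 and 50, and over 1521 annotated ncRNA genes 0.07, with 82 and 50. A tRNA gene has a median length of 73 nt, so its density includes tags of its flanks, whose part in the difference was not tested, and no test was run on these features.

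Some genes parted by at least 1.5-fold over their coding exons and by less over their whole annotated length. In adh1, the alcohol dehydrogenase gene of glucose fermentation, the log2 difference was -0.73 over the 1053 nt of coding exons, 0.20 over the rest of the row and -0.07 over the 3463 nt row. In cit1, a citrate synthase gene, it was -0.78 over coding exons, -0.08 outside and -0.46 over the row. In the transcription factor gene mbx2 it was -0.84, -0.24 and -0.33. In pho1 it was -0.86, -0.25 and -0.54. These genes were chosen after their values were seen.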
